A study of Homo sapiens with 6 samples.

Results

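The genes described here encode 10 enzymes that make serine or handle folate-bound one-carbon units: PHGDH, PSAT1, PSPH, SHMT1, SHMT2, MTHFD1, MTHFD1L, MTHFD2, ALDH1L2 and GLDC. They were taken by symbol from the authors' deposited log2 FPKM table (fragments per kilobase of gene length, per-million fragments) and joined by gene identifier to the count table. All 10 were found among its 60504 genes, and all 10 passed the filter on low counts that left 15116 genes to test. RNA was sequenced from HepG2, an established line of human liver carcinoma cells grown as a monolayer in DMEM, without genetic change stated in the labels. There were 3 libraries from cells given 0.1% DMSO for 48 h and 3 from cells given 10 µM oridonin for 48 h. Oridonin is a plant diterpenoid that reacts with thiols. The labels do not say how much DMSO the oridonin wells held, whether the wells of a group came from separate cultures, or which passage of the line was used. The p-values thus measure the spread between these wells, which may be technical. By its title, the study asked how oridonin acts on metabolism.

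Serine is built from a glycolytic intermediate by PHGDH, PSAT1 and PSPH in that order. The hydroxymethyltransferases SHMT1, in the cytosol, and SHMT2, in mitochondria, then split serine into glycine and a one-carbon unit on tetrahydrofolate. MTHFD2, MTHFD1L and ALDH1L2 oxidise or release that unit in mitochondria, MTHFD1 does the corresponding steps in the cytosol, and GLDC is the decarboxylase of the mitochondrial glycine cleavage system. The units feed purine, thymidylate and methionine synthesis, and dividing cells use much of the flux. Liver cells also take glycine apart, and the transcription factor ATF4 is a known activator of several of these genes.

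Total counts ran from 22250202 to 30739574 per library. Levels are in CPM, counts-per-million of a library, scaled by TMM factors (edgeR's correction for library composition) unless total counts are named. The hepatocyte markers ALB, AFP, APOA1, APOA2, TTR, SERPINA1, TF and FGB were all measured, and their counts summed to between 15117 and 16399 CPM by total counts in DMSO and between 10420 and 11483 in oridonin. TTR and FGB were low, with means of at most 7.27 and 13.5 CPM in either group. Of these 8 markers 5 fell, TTR did not pass the test, and FGB and APOA2 rose, at log2 fold changes of 1.23 and 0.19. Of 10 markers of blood, endothelial and stromal cells, 4 were too low to test: CD68 had 0 to 1 counts, PTPRC and CD3E 0 to 3 each, and DCN 0 to 6. Of the other 6, CD79A, PECAM1 and ACTA2 rose, LYZ fell, and VWF and COL1A2 did not pass the test. CD79A had a mean of 1.33 ± 0.154 CPM with DMSO and 17.7 ± 2.70 CPM with oridonin (SD, n = 3). The 10 markers summed to between 681 and 706 CPM by total counts in DMSO and between 467 and 504 in oridonin, with LYZ the main part. Whether any of these shifts bears on the enzyme genes was not tested. In a bulk library, fewer cells of one kind and less RNA per cell cannot be told apart.

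All 10 enzyme genes were lower after 48 h of oridonin, by amounts that ran from 9.25% for GLDC to 43.6% for PHGDH. Each was called by edgeR's quasi-likelihood test at a Benjamini-Hochberg adjusted p under 0.05 over all 15116 genes, and none was called higher. Among all tested genes 21.3% were called lower and 20.6% higher, so a call in either direction was common in this comparison. The median log2 fold change of the 10 genes was -0.50, against 0.01 over all tested genes, and none of them changed 2-fold. The libraries of the 2 groups did not overlap in CPM for any of the 10, with every DMSO value above every oridonin value, which held for 25.6% of all tested genes. With libraries scaled by total counts alone, 8 of the 10 passed, and the exceptions were GLDC and MTHFD1L. In that setting 15.6% of all tested genes were called lower. That scaling also moved calls over all genes, of which 65.5% were then upward against 49.2% in the main comparison.

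**Figure D1:**
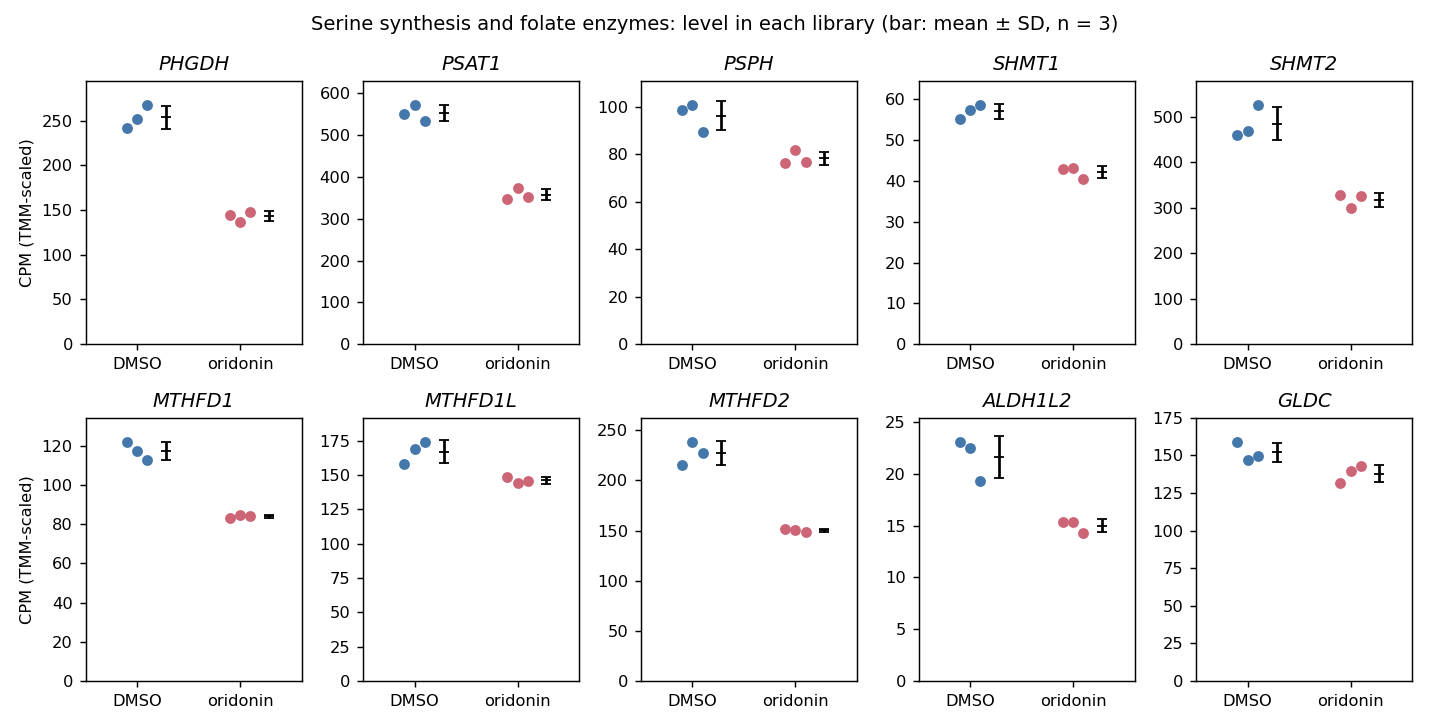
Each panel shows 1 enzyme gene, with TMM-scaled CPM on a linear vertical axis from 0 and the 3 DMSO and 3 oridonin libraries as points. The bar beside each group is its mean ± SD. In every panel the oridonin points lie below the DMSO points, widely apart for PHGDH and close together for GLDC.

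The RefSeq promoter windows (GRCh38.p14, 250 bases before to 50 after an annotated start) covered 7 of the 10 genes: PHGDH, PSAT1, SHMT1, MTHFD1, MTHFD1L, MTHFD2 and GLDC. The windows were searched on both strands for 4 short sequences. TGATGNAA is the core of the element that ATF4 binds with C/EBP partners, and TGACNNNGC is the core of the antioxidant response element. CACGTG is the E-box, and CCAAT is the box bound by NF-Y. The CCAAT search was added after the sequences of these genes had been read. Its shares are thus a description, and the contrast with other genes is no test. CCAAT was found in all 7, against 42.6% of the 10814 tested genes that have a window and 46.5% of the 2417 that were called lower. Counted by copies, PSAT1 held 3, SHMT1, MTHFD1 and MTHFD2 held 2 each, and PHGDH, MTHFD1L and GLDC 1 each, where 16.1% of tested genes held 2 or more. The ATF4 core was found in MTHFD1L alone, against 2.73% of tested genes. The E-box was found in MTHFD1 and MTHFD1L (12.4% of tested genes), and the antioxidant core in MTHFD2 (19.7%). These counts describe letters in a window and not binding.

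The stretches that hold the CCAAT letters are printed to show where they lie, on the strand of the gene, with CCAAT or its reverse complement ATTGG in capitals. For PSAT1 (chr9:78296875-78297124, plus strand) the 250 bases before the start are given, with copies that begin 113, 83 and 52 bases before it. For SHMT1 (chr17:18363564-18363800, minus strand) 237 bases are given, without those nearest the start that lie in an annotated exon of the gene. For the other 5 genes a site of 30 bases is given, and these sites were not checked against exons.
PSAT1: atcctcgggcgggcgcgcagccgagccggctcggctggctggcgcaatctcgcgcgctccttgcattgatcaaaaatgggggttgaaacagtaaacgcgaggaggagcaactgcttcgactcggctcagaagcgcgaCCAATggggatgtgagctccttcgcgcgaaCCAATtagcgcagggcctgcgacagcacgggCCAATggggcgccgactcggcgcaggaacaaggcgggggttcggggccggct
SHMT1: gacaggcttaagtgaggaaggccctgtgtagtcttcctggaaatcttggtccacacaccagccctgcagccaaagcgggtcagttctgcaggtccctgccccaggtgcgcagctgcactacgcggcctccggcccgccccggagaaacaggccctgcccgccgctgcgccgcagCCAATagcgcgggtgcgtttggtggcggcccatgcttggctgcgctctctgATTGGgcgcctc
PHGDH (chr1:119711851-119711880, plus strand): gagtatttccgtCCAATcaaaaggagactg
MTHFD2 (chr2:74198529-74198558, plus strand): atgcggcagggaCCAATgggtggcggaggg
MTHFD1 (chr14:64388125-64388154, plus strand): tctttctttccgCCAATcatttccgccagc
MTHFD1L (chr6:150866281-150866310, plus strand): gcgtgggcatctCCAATgggcgcctagcgg
GLDC (chr9:6645766-6645795, minus strand): ctgtctactttcATTGGccaagggcttcct
In PHGDH, SHMT1, MTHFD2 and GLDC the copy, or 1 of the copies, began 71, 76, 74 and 54 bases before the start. In MTHFD1 the printed copy began 216 bases before the start, and another lay 35 bases after it. The starts meant here are RefSeq's, which can differ from the ends of the deposited gene spans. The printed sites of PHGDH, MTHFD1 and MTHFD1L lie inside those spans, which begin at 119659798, 64388031 and 150865549. MTHFD1L has 4 annotated starts, and its copy began 193, 154 and 40 bases before the 3 that share it. Its ATF4 core lay 129 and 90 bases before 2 of those starts and 24 bases after the other, and is shown in capitals.
MTHFD1L (chr6:150866345-150866374, plus strand): ggccgccggctcTGATGCAAtcgcgccggg

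The 3 enzymes of serine synthesis fell, by 43.6% for PHGDH, 35.3% for PSAT1 and 18.6% for PSPH. PHGDH (ENSG00000092621, chr1:119659798-119744215 on hg38, plus strand) encodes the dehydrogenase of the first step. Its level was 241.5, 252 and 268 CPM in DMSO libraries 1 to 3 and 145, 137 and 148 CPM in oridonin libraries 1 to 3. The lowest DMSO library was thus 93.9 CPM above the highest oridonin library. The log2 fold change was -0.83 ± 0.05 (SE, n = 3 per group, adjusted p by edgeR = 2.42e-09), and only 2.91% of tested genes had a lower one.

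PSAT1 (ENSG00000135069, chr9:78297143-78330093, plus strand) encodes the aminotransferase of the second step. It was measured at 550, 572 and 534 CPM in the DMSO libraries and at 348, 373 and 351 CPM in the oridonin libraries. The groups were 161 CPM apart at their closest, and the log2 fold change was -0.63 ± 0.05 (SE, adjusted p by edgeR = 2.55e-08). PSPH (ENSG00000146733, chr7:56011051-56051604, minus strand) encodes the phosphatase that releases serine. It stood at 98.4, 101 and 89.2 CPM in DMSO and 76.4, 81.5 and 76.6 CPM in oridonin, so that DMSO library 3 was low for its group and still above the oridonin libraries. Its log2 fold change was -0.30 ± 0.06 (SE, adjusted p by edgeR = 0.000438). The 3 genes together summed to 890, 925 and 891 CPM in DMSO and 570, 591 and 575 CPM in oridonin.

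Both serine hydroxymethyltransferases fell, SHMT2 by 34.5% and SHMT1 by 26.0%. SHMT2 (ENSG00000182199, chr12:57229327-57234935, plus strand), the mitochondrial form, had 460, 470 and 526 CPM in DMSO and 328, 300.1 and 326 CPM in oridonin. DMSO library 3 was high for its group, and the groups were 132 CPM apart at their closest. Its log2 fold change was -0.61 ± 0.06 (SE, adjusted p by edgeR = 2.06e-07). SHMT1 (ENSG00000176974, chr17:18327860-18363563, minus strand), the cytosolic form, had 55.1, 57.4 and 58.6 CPM in DMSO and 43.0, 43.1 and 40.6 CPM in oridonin. Replicates lay close together, and the groups were 12.0 CPM apart at their closest. The log2 fold change of SHMT1 was -0.43 ± 0.06 (SE, adjusted p by edgeR = 9.88e-06).

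The dehydrogenases that carry the one-carbon unit on from there fell in both compartments. MTHFD2 (ENSG00000065911, chr2:74198562-74217565, plus strand), the mitochondrial dehydrogenase and cyclohydrolase that is high in many tumours, had 215, 239 and 227 CPM in DMSO and 151, 151 and 148 CPM in oridonin. The oridonin libraries were nearly equal, and the groups were 63.5 CPM apart. Its log2 fold change was -0.60 ± 0.05 (SE, adjusted p by edgeR = 6.55e-08). MTHFD1 (ENSG00000100714, chr14:64388031-64463457, plus strand), a single cytosolic protein with dehydrogenase, cyclohydrolase and synthetase activities, had 122, 118 and 113 CPM in DMSO and 83.1, 84.7 and 84.3 CPM in oridonin. Again all DMSO libraries were above all oridonin libraries, and the log2 fold change was -0.48 ± 0.05 (SE, adjusted p by edgeR = 7.64e-07).

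The last mitochondrial steps differed in size. ALDH1L2 (ENSG00000136010, chr12:105019784-105084577, minus strand), which oxidises formyltetrahydrofolate to CO2 with formation of NADPH, was the weakest expressed of the 10. It had 23.1, 22.4 and 19.3 CPM in DMSO and 15.4, 15.3 and 14.3 CPM in oridonin, from 403 to 639 counts per library, and a log2 fold change of -0.53 ± 0.08 (SE, adjusted p by edgeR = 5.86e-05). MTHFD1L (ENSG00000120254, chr6:150865549-151101887, plus strand), the synthetase that releases formate from mitochondria, had 158, 169 and 174 CPM in DMSO and 149, 144 and 146 CPM in oridonin. DMSO library 1 came within 8.84 CPM of oridonin library 1. The log2 fold change of MTHFD1L was -0.19 ± 0.05 (SE, adjusted p by edgeR = 0.00509), but with total-count scaling it was -0.11, with an adjusted p of 0.0705.

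GLDC (ENSG00000178445, chr9:6532464-6645650, minus strand) showed the smallest change of the 10. Its level was 159, 147 and 150 CPM in DMSO and 131, 140 and 143 CPM in oridonin, and the groups were 4.55 CPM apart at their closest. The log2 fold change was -0.14 ± 0.05 (SE, adjusted p by edgeR = 0.0375), and 31.3% of tested genes had a lower one. The call did not hold in 7 of 15 other settings, among them leaving out DMSO library 1 (log2 fold change -0.11, adjusted p = 0.155), oridonin library 1 (-0.11, adjusted p = 0.197) or oridonin library 2 (-0.15, adjusted p = 0.063). With total-count scaling it was -0.06 (adjusted p = 0.366). The sign stayed negative in all 15.

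**Figure D2:**
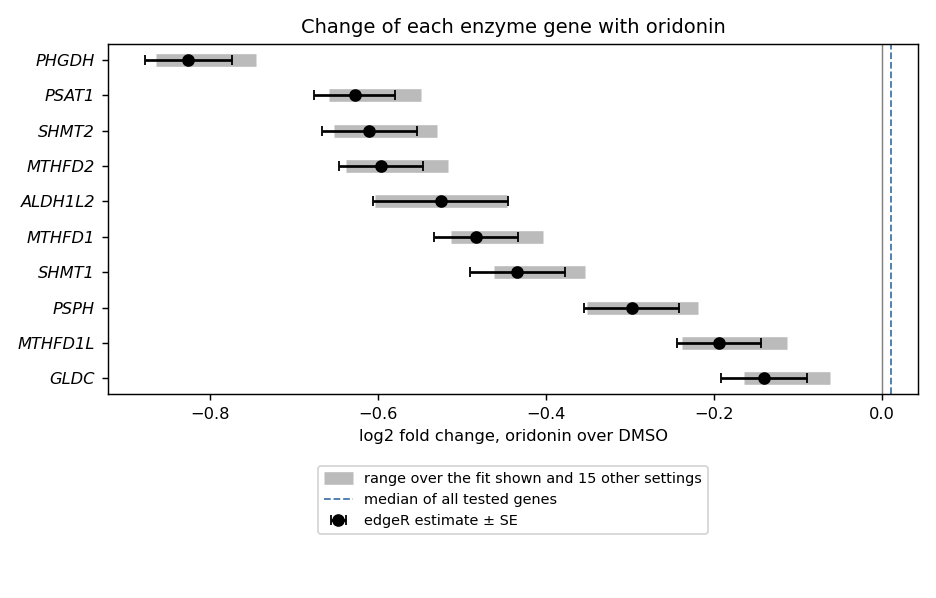
Points give the edgeR log2 fold change of each enzyme gene (oridonin over DMSO) with its SE, grey bars the range over that fit and 15 other settings, and the dashed line the median of all tested genes. PHGDH lies farthest left at -0.83 and GLDC nearest to 0 at -0.14, and every grey bar stays below 0.

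The strand setting of the counting is not given in the sources used here, so reads from opposite strands may have been mixed where genes overlap. SHMT1 overlaps SMCR8 on the opposite strand, which had 1506 to 2334 counts per library and a log2 fold change of 0.04 (edgeR adjusted p = 0.615), and they share 196 of 7281 exonic bases of SHMT1 in GENCODE 29. ALDH1L2 shares 145 of 8507 exonic bases with C12orf45, which had 307 to 560 counts and was higher with oridonin at 0.33 (edgeR adjusted p = 0.00283). MTHFD1 shares 178 of 9377 with ZBTB25, which had 199 to 286 counts and did not pass the test (-0.08, edgeR adjusted p = 0.511). The longest shared stretch belongs to MTHFD2, with 1324 of 4870 exonic bases in common with SLC4A5, which had only 2 to 7 counts. MTHFD1 shares 756 more bases with an antisense gene of 3 to 9 counts. The values of these 4 genes are uncertain to that extent, since the counting rule for shared bases is not known here. Few reads were counted for copies: of 15 genes named as copies of a member, GLDCP1 had the most counts, 4 to 14 per library. How reads that match both a copy and its member were counted is not known here.

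Levels of different genes can be set side by side only per length, and the result depends on the length used. For SHMT1, SHMT2, MTHFD1, MTHFD1L, MTHFD2 and ALDH1L2 the deposited length equalled all exonic bases in GENCODE 29, such as 9377 for MTHFD1. Transcripts may be shorter, so the order of genes in either group is uncertain to that extent. By mean CPM in DMSO, PSAT1 (2188 bases) had 552 and PHGDH (5622 bases) 254. In DMSO, mean FPKM was 250.2 ± 8.26 for PSAT1, 99.7 ± 8.26 for SHMT2, 46.3 ± 2.60 for MTHFD2 and 44.8 ± 2.64 for PHGDH (SD, n = 3). PSPH, MTHFD1L and GLDC followed at 34.5 ± 2.06, 33.0 ± 1.96 and 32.4 ± 1.13 FPKM, then MTHFD1 at 12.4 ± 0.388, SHMT1 at 7.79 ± 0.299 and ALDH1L2 at 2.52 ± 0.223 FPKM. Among neighbours in this order, MTHFD2 and PHGDH overlapped between libraries, as did PSPH with MTHFD1L and MTHFD1L with GLDC, while the other neighbours did not.

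With oridonin, PSAT1 at 164 ± 6.51 FPKM and SHMT2 at 66.0 ± 3.26 FPKM still led, and MTHFD1, SHMT1 and ALDH1L2 still came last. PHGDH moved from the fourth place to the seventh, at 25.6 ± 1.08 FPKM, below GLDC at 29.7 ± 1.50, MTHFD1L at 29.2 ± 0.405 and PSPH at 28.5 ± 1.05 FPKM (SD, n = 3). MTHFD2, at 31.0 ± 0.247 FPKM, overlapped with GLDC, GLDC with MTHFD1L and MTHFD1L with PSPH, whereas PHGDH did not overlap with PSPH. All 10 together summed to between 549 and 573 FPKM in DMSO and between 385 and 395 FPKM in oridonin.

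**Figure D3:**
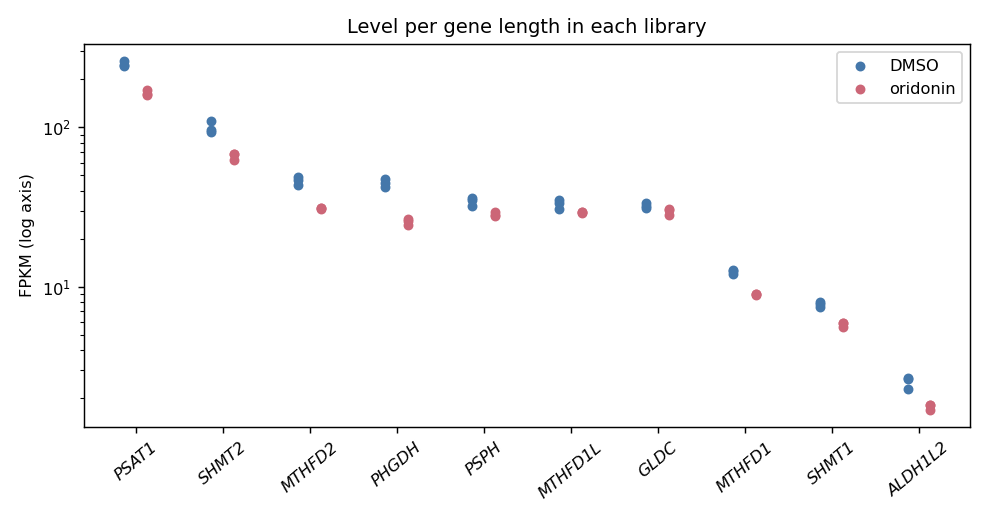
FPKM of the 10 genes in each library on a log axis, ordered by their DMSO mean, with DMSO in blue and oridonin in red. PSAT1 is the highest gene in both groups and ALDH1L2 the lowest, and the red points of PHGDH lie below those of GLDC, MTHFD1L and PSPH.

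Whether the genes changed by different amounts was examined with 7 ratios of FPKM within a library, which do not depend on how libraries are scaled. The size of a ratio depends on the gene lengths used, but its change between the groups does not. With 3 libraries against 3, a two-sided exact permutation test cannot give a p below 0.1, so none could pass 0.05. The mitochondrial SHMT2 was 12.6, 12.3 and 13.5 times SHMT1 in the DMSO libraries and 11.5, 10.5 and 12.1 times in the oridonin libraries. These did not overlap, and the log2 ratio changed by -0.17 (exact permutation p = 0.1, adjusted over the 7 ratios 0.117). The ratio of MTHFD2 to MTHFD1 was 3.39, 3.89 and 3.89 in DMSO and 3.53, 3.43 and 3.39 in oridonin, which overlapped (change in log2 ratio -0.11, exact permutation p = 0.4). The overlap rests on DMSO library 1, without which the change was -0.17.

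The next ratios compare the mitochondrial steps with each other and with MTHFD1. MTHFD1L was 2.41, 2.68 and 2.89 times MTHFD1 in DMSO and 3.36, 3.18 and 3.23 times in oridonin, a change of 0.30 in the log2 ratio with no overlap. ALDH1L2 was 0.0866, 0.0786 and 0.0652 times MTHFD1L in DMSO and 0.0608, 0.0629 and 0.0579 times in oridonin, a change of -0.33 with no overlap. GLDC, which takes glycine apart, was 0.358, 0.325 and 0.295 times SHMT2 in DMSO and 0.415, 0.486 and 0.454 times in oridonin, the largest of the 7 changes at 0.47, again with no overlap. Each of these had an exact permutation p of 0.1 (adjusted 0.117), the smallest that the design allows.

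Within serine synthesis both ratios of a later to an earlier enzyme were higher with oridonin. PSAT1 was 5.86, 5.82 and 5.13 times PHGDH in DMSO and 6.15, 7.01 and 6.11 times in oridonin, a change of 0.20 in the log2 ratio. PSPH was 0.142, 0.140 and 0.132 times PSAT1 in DMSO and 0.174, 0.173 and 0.173 times in oridonin, a change of 0.33. Neither ratio overlapped between groups (exact permutation p = 0.1 each, adjusted 0.117).

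**Figure D4:**
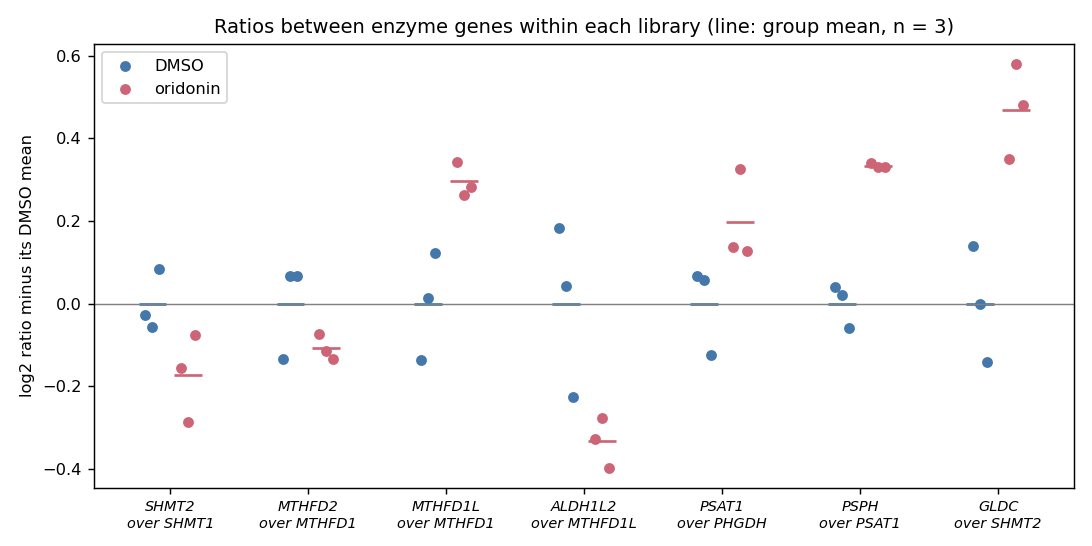
Log2 ratio of 2 enzyme genes in each library, with the DMSO mean of that ratio set to 0, for DMSO (blue) and oridonin (red), with lines at the group means. The groups overlap only for MTHFD2 over MTHFD1, and GLDC over SHMT2 moves most, by 0.47.

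The other genes of the pathway are given by list, to be read against the 21.3% of all tested genes that were called lower and the 20.6% called higher. Of 12 tested genes of folate uptake and interconversion (of 14 listed), 4 fell, 3 rose and 5 did not pass the test, with a median log2 fold change of -0.10, and the share that rose was near that of all genes. GGH, the hydrolase that trims folate polyglutamates, fell from 156 ± 2.24 to 117 ± 6.30 CPM, and SLC46A1, the proton-coupled folate carrier, from 10.7 ± 0.383 to 7.55 ± 0.273 CPM (SD, n = 3; adjusted p by edgeR = 6.30e-06 and 0.00030). The carrier SLC19A1 fell at -0.20, and MTFMT, which formylates the mitochondrial initiator tRNA, rose at 0.22. SLC19A1 overlaps COL18A1 on the opposite strand, with 3.09 times its reads, so its value is uncertain. ALDH1L1, the cytosolic counterpart of ALDH1L2, rose from 5.70 ± 0.0951 to 7.83 ± 0.707 CPM (SD, n = 3, adjusted p by edgeR = 0.00242), a log2 fold change of 0.46 ± 0.11 (SE). On the deposited log2 FPKM values the change was of like size, 0.47 ± 0.18 (SE), and did not pass (limma adjusted p = 0.08).

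Among 10 genes of purine and thymidylate synthesis, most of which take no one-carbon unit themselves, 5 fell, none rose and 5 did not pass, with a median of -0.15. Of the 3 that use a folate-bound unit, TYMS, GART and ATIC, TYMS passed. IMPDH2, which commits inosine monophosphate to guanine nucleotides, fell from 236 ± 4.14 to 179 ± 3.61 CPM (SD, n = 3, adjusted p by edgeR = 2.41e-06). TYMS, thymidylate synthase, fell from 34.9 ± 2.78 to 24.0 ± 1.97 CPM (edgeR adjusted p = 2.26e-05), with ENOSF1 overlapping it on the opposite strand at 1.19 times its reads. PAICS, GMPS and ADSL fell at -0.29, -0.31 and -0.17. GART and ATIC, the enzymes that take formyl groups from folate, did not pass, at 159 ± 0.441 against 162 ± 6.52 CPM and at 257 ± 5.97 against 248 ± 14.8 CPM (SD, n = 3; adjusted p by edgeR = 0.623 and 0.435), and GART overlaps SON on the opposite strand.

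Of 8 tested genes of the glycine cleavage system and of serine or glycine breakdown (of 10 listed), 4 fell, 1 rose and 3 did not pass, with a median of -0.25. AMT, the aminomethyltransferase partner of GLDC, fell at -0.31. GCSH, the carrier protein, and DLD, the dehydrogenase, did not pass (-0.27 and 0.06, adjusted p by edgeR = 0.107 and 0.338). DLD overlaps LAMB1 on the opposite strand, which had 4.03 times its reads, so the value of DLD is uncertain. AGXT, a liver enzyme that uses glyoxylate and alanine to form glycine, fell from 5.92 ± 0.162 to 3.39 ± 0.408 CPM (SD, n = 3, adjusted p by edgeR = 7.91e-05). GATM, which makes guanidinoacetate from glycine, fell at -1.04 on only 17 to 43 counts per library, and GCAT fell at -0.24. SDSL, a serine dehydratase relative, rose at 0.46, but did not pass without DMSO library 2 or 3 (adjusted p = 0.096 and 0.0536) or without oridonin library 1 or 3 (0.0774 and 0.0505).

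In the methionine cycle and transsulfuration 7 of 11 genes fell, 1 rose and 3 did not pass, with a median of -0.24. AHCY, which hydrolyses S-adenosylhomocysteine, fell from 445.5 ± 16.5 to 371 ± 16.1 CPM, and CTH, which releases cysteine, from 20.6 ± 1.25 to 14.9 ± 0.380 CPM (SD, n = 3; adjusted p by edgeR = 0.000345 and 8.08e-05). BHMT2, a methyltransferase that remethylates homocysteine without folate, rose from 14.1 ± 1.12 to 22.0 ± 0.706 CPM (SD, n = 3, adjusted p by edgeR = 4.60e-06), and overlaps DMGDH on the opposite strand, which had 0.318 times its reads. Of 9 serine and glycine carriers, 3 were lower, 2 higher and 4 did not pass, with a median of 0.02, beside 21.3% lower and 20.6% higher over all tested genes, so nothing particular to carriers is read from these counts. SLC6A9, the glycine transporter GlyT1, fell from 25.5 ± 2.15 to 13.9 ± 0.589 CPM and SLC1A4, which exchanges serine, from 147 ± 3.65 to 107 ± 1.73 CPM (SD, n = 3; adjusted p by edgeR = 1.37e-07 and 7.16e-07). SLC38A2, an importer of small neutral amino acids, rose from 1132 ± 34.0 to 1340 ± 59.8 CPM (SD, n = 3, adjusted p by edgeR = 0.000586). SLC7A10 fell at -1.11 and overlaps the far more abundant LRP3, and SFXN3, a relative of the mitochondrial serine carrier SFXN1, rose at 0.23, while SFXN1 itself did not pass (0.06, edgeR adjusted p = 0.392).

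ATF4 and its known targets outside serine synthesis were mostly lower: 10 of 15 fell, 1 rose and 4 did not pass, with a median of -0.44. DDIT3, counted among those that fell, overlaps MARS on the opposite strand, with 37.5 times its reads. ATF5, which did not pass, overlaps NUP62 in the same way, with 4.82 times its reads, so both values are uncertain. ATF4 itself had 604, 636 and 678 CPM in DMSO and 433, 458 and 450 CPM in oridonin, with no overlap (log2 fold change -0.52 ± 0.05, SE, adjusted p by edgeR = 4.16e-07). ASNS, asparagine synthetase, fell from 177 ± 7.03 to 119 ± 4.59 CPM (SD, n = 3, adjusted p by edgeR = 1.15e-07). SLC7A11, the cystine importer that NRF2 also activates, rose from 160 ± 1.75 to 247 ± 13.6 CPM (SD, n = 3, adjusted p by edgeR = 3.84e-08). The transcript of NRF2, NFE2L2, had 215, 233 and 230.3 CPM in DMSO and 162, 183 and 151 CPM in oridonin, and fell at -0.45 ± 0.06 (SE, adjusted p by edgeR = 2.75e-05). The ATF4 core TGATGNAA was in the windows of ASNS, CHAC1, ATF3 and SLC3A2, which is 4 of the 13 genes of this list with a window. It was also in those of SLC1A4, SLC1A5 and SLC38A1, 3 of 9 carriers, against 2.73% of tested genes with a window. No gene with a window in the other related lists held it. The list was made of known ATF4 targets, so its share is a description and no test. Of the genes named with the core, ASNS, ATF3 and SLC1A4 fell, while CHAC1, SLC3A2, SLC1A5 and SLC38A1 did not pass.

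All 9 proliferation genes fell, with a median of -0.69, beside 21.3% of all tested genes that were called lower. MKI67, which marks cycling cells, fell at -0.91 and TOP2A at -0.85, and PCNA fell least at -0.21. ALB and AFP, the adult and fetal plasma carriers of the liver, fell at -0.77 and -0.71. They are among the 5 of 8 hepatocyte markers that fell, while FGB rose at 1.23, APOA2 rose at 0.19 and TTR did not pass. The part of proliferation, of ATF4 or of the liver programme in the levels of the 10 enzymes was not tested.

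**Figure D5:**
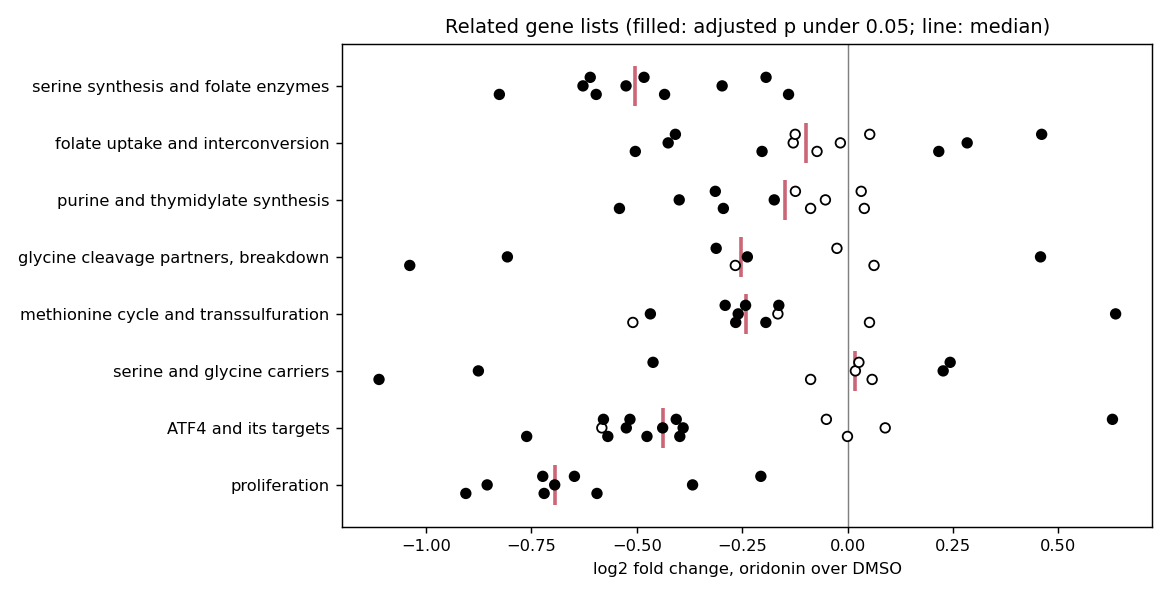
Log2 fold change (oridonin over DMSO) of each tested gene of the 10 enzymes and of the 7 related lists. Filled points passed the edgeR test, open points did not, and red lines mark medians. All points of the enzyme and proliferation rows lie left of 0, while the folate uptake and carrier rows spread to both sides.

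Over the 6 libraries, the genes whose log2 CPM was most like the mean standardised profile of the 10 enzymes were GK, glycerol kinase, SSC4D and HMGB2, a chromatin protein, each with a Pearson correlation of 0.999. GK has near copies, so its level is uncertain. GK had 113, 112 and 112 CPM in DMSO and 62.2, 65.0 and 62.6 CPM in oridonin. With only 2 treatments, any gene with a clean difference between them resembles this profile, and 1361 of 12445 protein-coding genes (10.9%) had a correlation above 0.95. Within the 10, the correlation with their own mean profile ran from 0.820 for GLDC and 0.898 for MTHFD1L to 0.996 for PSAT1.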

How the data were processed

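Gene-level RNA sequencing of 6 HepG2 libraries was used. The deposited count table holds whole-number counts for 60504 genes, 1 column per library, and the deposited log2 FPKM table holds log2 values without a pseudocount for the 18404 genes with at least 1 count in every library. The submitters' processing notes name the hg38 build and DESeq2 1.10.1. Which aligner, counter and strand mode were used is not given in the sources used here.

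Counts were tested with edgeR 4.0.16 in R 4.3.3 (filterByExpr at its defaults, TMM factors, glmQLFit with robust estimation, glmQLFTest, treatment as the only term), with Benjamini-Hochberg adjustment over 15116 genes and a call at 0.05. The SE is the log2 fold change divided by the square root of F. CPM are TMM-scaled unless given per total counts, and log2 CPM used a prior count of 2. FPKM is 2 to the power of the deposited value. Ratios were tested by exact permutation of the libraries. Alternatives were DESeq2 1.42.0, limma 3.58.1 (voom, and on log2 FPKM), other scaling and filters, a replicate block, and leaving out each library. Counts cover reads and not molecules. Replicates of a group differed beyond sampling noise.

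The 10 enzymes and the 7 related lists and cell type markers (96 genes) were chosen with earlier results of these data known. Named are all 10 enzymes, per list up to 2 called genes with the smallest p in the commoner direction and 1 in the other, ATF4, NFE2L2, ALB and AFP, and the 3 most alike genes. Other list genes were named after their values were seen. Current symbols were found for 41209 genes, and the deposited names served for the rest. Promoter sequences are RefSeq's, GRCh38.p14. GENCODE 29 gave exons. Some genes of the folate uptake list are counted but not reported here by name.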

Additional observations from a re-analysis of the deposited data

How the results depend on the processing

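Over 15 other settings the 10 enzymes kept their negative sign, and 8 of them were called in all 15. Leaving out 1 library at a time, between 9 and 10 enzymes were called lower and none higher. MTHFD1L was not called with total-count scaling (-0.11). GLDC was not called with total-count scaling (-0.061), upper-quartile factors (-0.12), no filter (-0.12) or limma on the deposited log2 FPKM (-0.12). It was also not called in 3 of the 6 fits without 1 library. Over all 6 of those fits, called or not, its log2 fold change ran from -0.16 to -0.11. The cause was not tested. Over all genes, calls ran from 2748 to 3289 lower and from 2534 to 3258 higher without 1 library, against 3214 and 3118 with all 6. Total-count scaling moved the median of all genes by 0.08 on the log2 scale and gave 2359 lower and 4487 higher.

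The titles number the replicates 1 to 3 in both groups. Same-numbered libraries deviated from their group means with correlations of 0.194, 0.0651 and 0.173, so not every pair passed 0.1, although each library correlated best with its own number. With the replicate number as a block, 3839 genes were called lower and 3850 higher, and all 10 enzymes stayed lower, PHGDH at -0.83 and GLDC at -0.14. All ratios kept their sign in counts per kilobase and without any 1 library. ALDH1L2, with 403 to 639 counts per library, had the largest SE of the 10, 0.08.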
